A study of Homo sapiens with 4 samples.

Results

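The genes described are 56 genes of histone and DNA modification, taken from a fixed list of names. The list and its classes were drawn up with earlier results of these data known. They comprise 22 genes of histone methylation, 10 of histone demethylation, 6 of histone acetylation, 7 of histone deacetylation, 6 of DNA methylation and its removal, and 5 of the SWI/SNF remodelling complex. They were measured in REC-1 and Z138, established human cell lines of mantle cell lymphoma, a B-cell malignancy. Each line gave 1 control array and 1 array after CC-292, an inhibitor of the B-cell receptor kinase BTK, so that 4 groups of 1 array were compared. The titles give 48 h for REC-1 control, REC-1 CC-292 and Z138 CC-292 and no time for Z138 control. They give 1 mM CC-292 where the treatment protocol gives 1 uM. The labels state no vehicle for the controls, no passage and no genotype of either line. All 56 genes were measured, among 18239 genes with a probe set of their own.

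Histone methyltransferases of the kinds listed place methyl groups on lysines of histones. Methylation of H3K4 marks promoters and enhancers in use, H3K36 methylation marks transcribed gene bodies, and H3K27 and H3K9 methylation mark silenced chromatin. Demethylases of the KDM families remove these marks, acetylases such as CBP and p300 open chromatin at enhancers, and deacetylases reverse this. DNMT enzymes methylate DNA, TET enzymes oxidise the methyl group as a step towards its removal, and SWI/SNF moves nucleosomes with energy from ATP. Several of these genes, among them KMT2D, NSD2 and SMARCA4, are known to be mutated in mantle cell lymphoma. Nothing in the labels states whether they are mutated in these lines.

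The values are log2 probe-set signals, so that a difference of 1 is a 2-fold difference. Each gene is given by the brightest of its probe sets. The spread of a difference is its SD over those probe sets of the gene that reached a brightness minimum on at least 1 array. That minimum was the median of all values, 4.63, reached on at least 1 array by 10823 genes and by all 56 of those described. It was reached on all 4 arrays by 55 of them, the exception being KDM6B. For a gene with 1 such probe set (12 of 56) the pooled SD between probe sets applies, which was 0.31 for CC-292 minus control in REC-1, 0.25 in Z138 and 0.48 for REC-1 control minus Z138 control. How far repeated cultures or repeated arrays would differ is in none of these SDs, as each group has 1 array.

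Signals of different probe sets were not set against each other. The B-cell markers measured (6 of 7) and both lymphoma markers reached the minimum on all 4 arrays, with summed log2 signals of the B-cell markers of 60.7 and 61.6 in REC-1 and 55.0 and 53.1 in Z138, control first. Of the markers of T, NK, myeloid and erythroid cells that were measured, 1 of 15 (HBB) reached it on all 4 arrays and another 4 on some, with CD3G highest at 6.07 on Z138 CC-292. CD3E, NKG7, CD14 and LYZ reached it on none. Summed signals on the 4 arrays ran from 16.6 to 17.4 for the 5 myeloid markers and from 20.4 to 22.2 for the 5 T-cell markers. A sign of RNA integrity differed between the lines. The 3' minus 5' signal of ACTB was 0.77 and 0.53 on the REC-1 arrays and 1.12 and 1.11 on the Z138 arrays, whereas for GAPDH it ran from -0.32 to -0.24. Hybridization controls were brighter on the REC-1 control array than on the Z138 control array by a median of 0.33 over 9 probe sets, and by 0.17 on the CC-292 arrays. The part of these values in the line differences below was not tested. The median difference over all kept genes was 0.02 between the control arrays.

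The first comparison asked how the lines differ in these genes. The lines differed most in KDM5B, a demethylase of H3K4 that was 9.69-fold lower on the REC-1 control array than on the Z138 control array. HDAC5, a class IIa deacetylase, was 5.44-fold lower and SMARCA2, an ATPase of SWI/SNF, 3.81-fold lower in REC-1. The H3K4 demethylase KDM5A, the methylcytosine dioxygenase TET1, the de novo DNA methyltransferase DNMT3A and both catalytic subunits of the Polycomb complex PRC2, EZH1 and EZH2, were also at least 2-fold lower. The acetylase KAT2B and the H3K4 methyltransferase KMT2A were 2.84-fold and 2.66-fold higher in REC-1. Thus 8 of 56 genes were past 2-fold on the lower side and 2 on the higher side. Among all 10823 kept genes 12.4% were past it on the lower side and 11.9% on the higher, so that the share of lower genes (14.3%) lay near that of all genes and the share of higher genes (3.57%) below it. The median over the 56 genes was -0.18, against 0.02 over all kept genes. Because each array averages a whole culture, fewer cells with a transcript and less transcript per cell cannot be told apart.

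The CC-292 arrays gave a second pair on which the same lines could be set side by side, with no array in common. On that pair 9 of 56 genes were at least 2-fold lower in REC-1 and 1 at least 2-fold higher, where 13.3% and 12.0% of all kept genes were. The sign was the same on both pairs for 46 of 56 genes. Of the 11 genes at least 2-fold different on either pair, 9 were so on both with the same sign, 8 lower and KAT2B higher. These counts of agreement were not taken over all kept genes, so that they show nothing particular to the 56. KMT2A, at 0.91, fell short of 2-fold on the CC-292 pair, and the acetylase KAT6A, at -1.07, reached it only there.

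**Figure D1:**
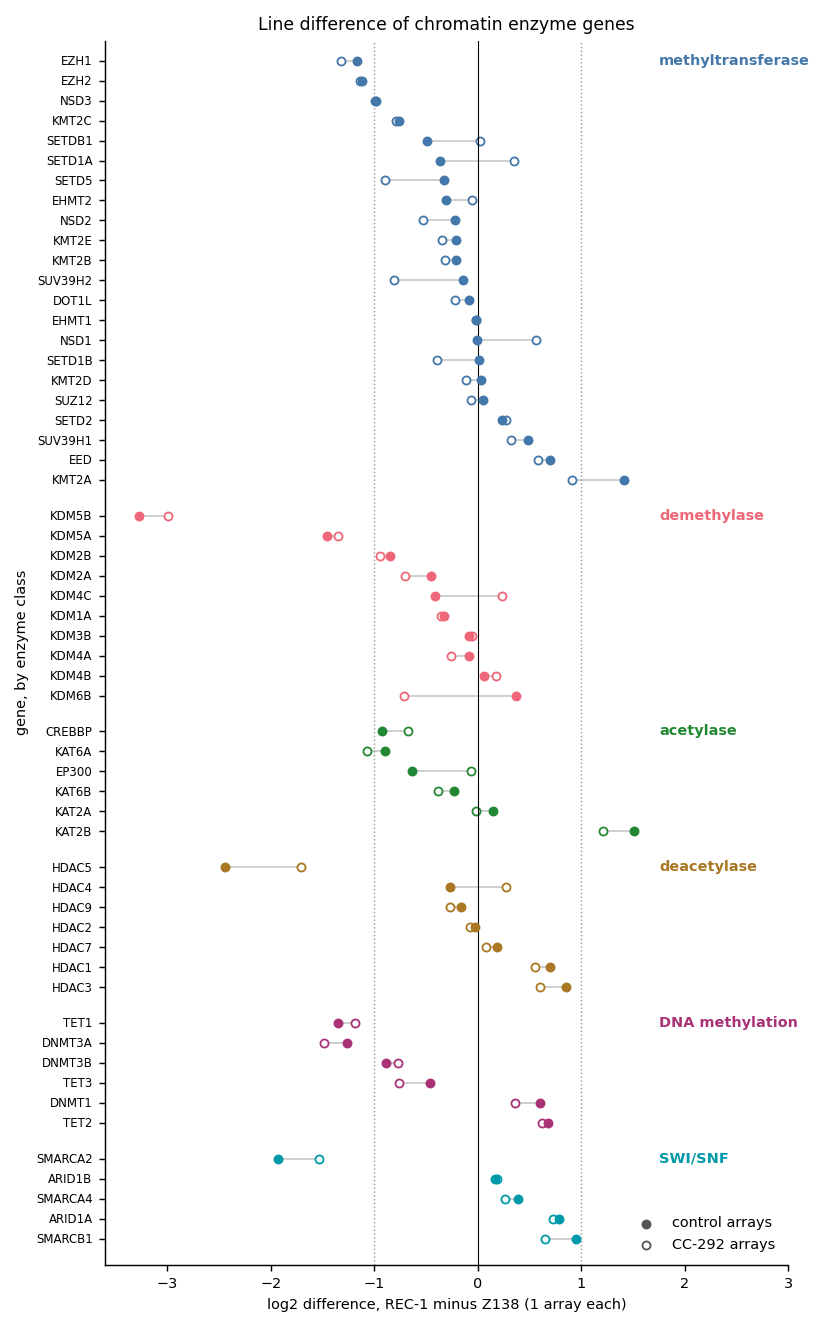
Log2 difference between the lines, REC-1 minus Z138, for all 56 genes (vertical axis, sorted within enzyme class). Filled points are the control arrays, open points the CC-292 arrays, 1 array per group; dotted lines mark 2-fold. KDM5B lies farthest to the left at -3.28 and -2.99, and KAT2B farthest to the right at 1.51 and 1.21.

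A limma fit of all 4 arrays with cell line and agent as terms tested the line difference averaged over both agents. The spread in this fit is how differently the lines stood apart on the control and the CC-292 arrays, moderated by a prior from all kept genes. In it, error between cultures cannot be told apart from a response that differs between the lines. Its p-values therefore do not measure how far repeated cultures would differ. At a Benjamini-Hochberg adjusted p under 0.05 over all kept genes it called 24 of 56 genes, 16 lower and 8 higher in REC-1. Of all kept genes 23.1% were called lower and 21.6% higher, or 44.7% in all, against 42.9% of the 56. With this brightness filter a line difference was therefore called about as often among these genes as among all kept genes. The counts by class below stand beside that 44.7%, and no test compared classes. The smallest difference called was that of KDM2A, at -0.58.

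The promoter windows of the 4 genes with the largest control differences among those for which a single start is tabulated are shown, since these genes carry the line difference in both directions. Each window runs from 250 bases before to 50 after the annotated start, is written 5' to 3' on the strand of the gene, and comes from RefSeq on GRCh38.p14. KDM5B lies at chr1:202808372-202808671 on the minus strand, KAT2B at chr3:20040196-20040495 on the plus strand, KDM5A at chr12:389271-389570 on the minus strand and KMT2A at chr11:118436242-118436541 on the plus strand. Capitals mark the GC box, GGGCGG on either strand.
KDM5B: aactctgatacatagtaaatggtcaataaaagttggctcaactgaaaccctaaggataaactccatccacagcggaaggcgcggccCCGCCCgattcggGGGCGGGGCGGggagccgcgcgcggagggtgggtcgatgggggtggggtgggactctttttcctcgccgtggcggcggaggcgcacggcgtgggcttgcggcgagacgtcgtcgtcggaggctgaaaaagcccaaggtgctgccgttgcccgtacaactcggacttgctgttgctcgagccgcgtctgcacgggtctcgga
KAT2B: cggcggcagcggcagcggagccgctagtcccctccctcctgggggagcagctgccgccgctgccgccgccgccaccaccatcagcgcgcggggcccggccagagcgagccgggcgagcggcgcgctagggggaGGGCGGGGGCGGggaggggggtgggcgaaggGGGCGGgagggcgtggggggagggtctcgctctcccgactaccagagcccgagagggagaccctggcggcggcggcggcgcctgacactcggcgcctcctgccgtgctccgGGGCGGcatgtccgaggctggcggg
KDM5A: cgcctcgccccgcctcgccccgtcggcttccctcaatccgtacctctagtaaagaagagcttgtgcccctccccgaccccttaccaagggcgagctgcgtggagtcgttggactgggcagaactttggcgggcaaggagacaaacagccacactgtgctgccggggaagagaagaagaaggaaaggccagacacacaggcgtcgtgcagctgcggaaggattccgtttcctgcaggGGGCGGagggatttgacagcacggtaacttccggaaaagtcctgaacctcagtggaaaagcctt
KMT2A: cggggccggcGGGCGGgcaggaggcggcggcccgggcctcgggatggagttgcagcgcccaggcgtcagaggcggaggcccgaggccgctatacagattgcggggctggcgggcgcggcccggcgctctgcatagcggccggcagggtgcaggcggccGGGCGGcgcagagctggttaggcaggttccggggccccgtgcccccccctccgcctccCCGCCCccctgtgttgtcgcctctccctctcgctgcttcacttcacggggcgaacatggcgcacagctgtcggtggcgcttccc

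The windows of KAT2B and KMT2A, both higher in REC-1, were 80.3% and 76.3% G and C, with 40 and 36 CpG dinucleotides. Those of KDM5B and KDM5A, both lower in REC-1, were 63.7% and 60.0% G and C, with 34 and 20 CpG. GC boxes numbered 4 in KAT2B, 3 in KMT2A, 3 in KDM5B and 1 in KDM5A, overlapping matches being counted each. Over all member windows (88 windows of 51 genes; 5 genes had none) the median was 68.2% G and C with 28 CpG, against 58.7% and 14 over all 35116 windows. The genes at least 2-fold lower in REC-1 control (18 windows of 7 genes) had a median of 66.8% G and C with 23 CpG. KAT2B and KMT2A are the only genes at least 2-fold higher. A GC box was present in 62.5% of member windows and in 45.0% of all windows. The TATAAA motif was present in 2.27% and 11.5%, the CCAAT motif in 28.4% and 34.6%, and the ETS core CCGGAAG in 6.82% and 10.3%, both strands counted. Of the 4 windows shown, the ETS core was present in that of KDM5A, and neither CCAAT nor TATAAA was present in any. These shares describe letters in the windows and were not tested.

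Among histone methyltransferases and their partners, 6 of 22 genes passed the line test, 4 lower and 2 higher in REC-1, and PRC2 held 3 of them. EZH1 gave log2 signals of 6.85 on REC-1 control, 6.71 on REC-1 CC-292, 8.02 on Z138 control and 8.03 on Z138 CC-292. Both REC-1 arrays thus lay more than a log2 unit below both Z138 arrays, with a fitted line difference of -1.24 (SE 0.16, adjusted p = 0.00252). EZH2, the catalytic subunit typical of dividing cells, gave 8.53, 8.55, 9.65 and 9.69 in the same order, a line difference of -1.13 (SE 0.16, adjusted p = 0.00318). Its 3 probe sets were all lower in REC-1 on the control arrays (mean -1.30, SD 0.63). EED, which reads the mark and holds the complex together, differed the other way at 10.33, 10.17, 9.63 and 9.59 (line difference 0.64, adjusted p = 0.0223, limma). SUZ12, the scaffold of the complex, was at 9.37, 9.39, 9.33 and 9.46 and was not called. The 4 core genes of PRC2 thus did not stand apart in 1 direction.

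The H3K4 methyltransferases were as divided. KMT2A, known from its fusions in acute leukaemia, gave 8.83 and 8.68 in REC-1 and 7.42 and 7.77 in Z138, control first. Its line difference was 1.16 (SE 0.19, adjusted p = 0.00554, limma), and the 7 of its 8 probe sets that reached the minimum on all 4 arrays were all higher in REC-1 control (over all 8, mean 1.08, SD 0.22). KMT2C, which with KMT2D methylates H3K4 at enhancers, gave 8.28 and 8.39 in REC-1 and 9.04 and 9.18 in Z138. It was called lower at -0.78 (SE 0.16), and its control difference had the same sign on all 6 probe sets (mean -0.71, SD 0.10). KMT2A and KMT2C thus differed in opposite directions. KMT2D lay between 4.66 and 4.80 on all arrays on its only probe set above the minimum, hardly above that minimum, so that little can be said of it. KMT2B, SETD1A and SETD1B had control differences of -0.21, -0.36 and 0.01, none called.

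NSD3, an H3K36 methyltransferase, was nearly 2-fold lower in REC-1 on both pairs. It gave 7.13 and 7.14 in REC-1 and 8.11 and 8.14 in Z138 (line difference -0.99, SE 0.16, adjusted p = 0.00489, limma), with 3 of 4 probe sets agreeing in sign on the control arrays. SETD2, which places the third methyl group on H3K36, and NSD1 and NSD2 were not called, with control differences of 0.23 for SETD2, near 0 for NSD1 and -0.22 for NSD2. NSD2 had 12 probe sets above the minimum, of which 7 were lower and the rest higher in REC-1 control. None of the 5 H3K9 genes was called either. Their control differences ran from -0.49 for SETDB1 to 0.48 for SUV39H1, with SUV39H2 at -0.14, EHMT2 at -0.31 and EHMT1 at -0.02. DOT1L, the H3K79 methyltransferase, was at -0.09. KMT2E and SETD5, proteins with a SET domain whose own enzyme activity is doubtful, were at -0.21 and -0.33.

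Demethylases called for the line were lower in REC-1 in each of 4 cases, out of 10 genes. KDM5B gave 4.65 on REC-1 control, 5.21 on REC-1 CC-292, 7.93 on Z138 control and 8.20 on Z138 CC-292. The REC-1 control value lay just above the brightness minimum, and both REC-1 arrays lay far below both Z138 arrays. The fitted line difference was -3.13 (SE 0.17, adjusted p = 0.000143), the smallest adjusted p among the 56 genes. Its 2 probe sets that reached the minimum on all 4 arrays differed by -3.28 and -2.99 on the control pair. Another, at -3.04, lay below the minimum in REC-1 and was kept through Z138. With the mean over all its probe sets, dim ones included, the control difference was -2.33. KDM5A, its paralogue, gave 8.33 and 8.40 in REC-1 and 9.78 and 9.75 in Z138 (line difference -1.41, SE 0.16, adjusted p = 0.0016, limma), with all 7 probe sets lower in REC-1 control (mean -1.23, SD 0.24).

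KDM2B and KDM2A, H3K36 demethylases that also bind unmethylated CpG, were called lower at -0.90 and -0.58. KDM2B gave 9.04 and 8.98 in REC-1 and 9.89 and 9.93 in Z138, and all 5 of its probe sets were lower in REC-1 control. KDM2A gave 7.12 and 6.97 against 7.57 and 7.68 (adjusted p = 0.0358, limma), a call that was lost without a brightness filter (adjusted p = 0.0635). KDM1A, the flavin-dependent H3K4 demethylase LSD1, had a control difference of -0.33 and was not called. The remaining control differences were -0.42 for KDM4C, -0.09 for KDM3B, -0.08 for KDM4A, 0.06 for KDM4B and 0.37 for KDM6B, none called.

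**Figure D2:**
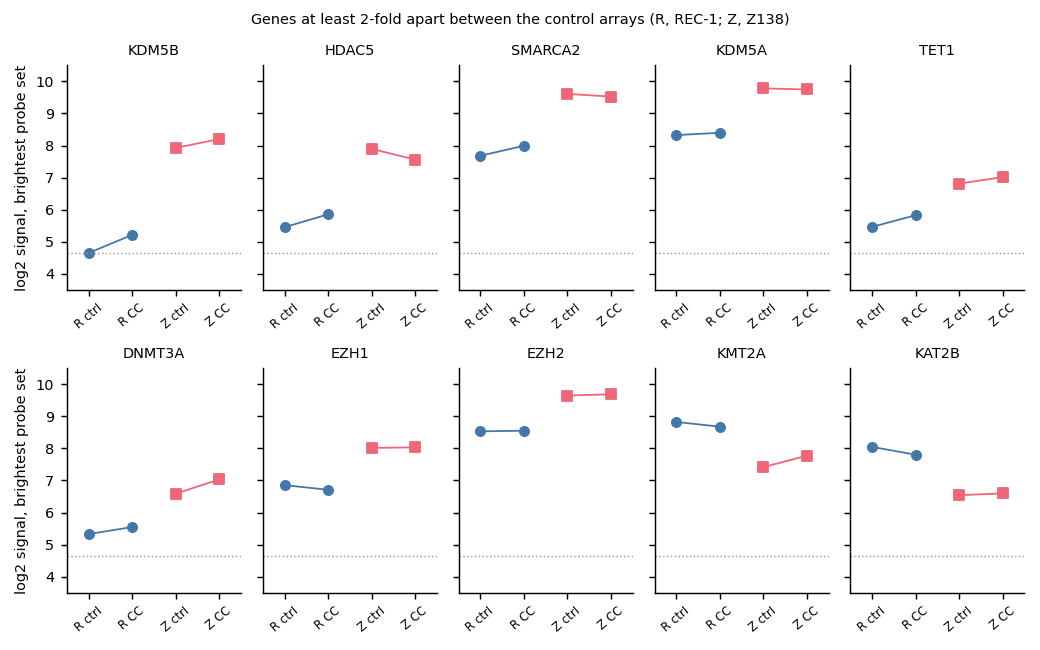
Log2 signal of the brightest probe set on the 4 arrays for the 10 genes at least 2-fold different between the control arrays. Circles are REC-1, squares Z138, each as control and CC-292 (1 array each); the dotted line is the brightness minimum, 4.63. In all 10 panels both arrays of one line lie above both arrays of the other.

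Acetylases gave 3 called genes of 6. KAT2B, also known as PCAF, gave 8.05 and 7.80 in REC-1 and 6.54 and 6.60 in Z138 (line difference 1.36, SE 0.17, adjusted p = 0.00226, limma). Its paralogue KAT2A, also known as GCN5, had a control difference of 0.15 and was not called. The value of KAT2B rests on its brightest probe set. Each of the other 2, at 0.97 and 0.13, reached the minimum on 1 REC-1 array alone. KAT6A, a MYST-family acetylase, gave 8.39 and 8.40 in REC-1 and 9.29 and 9.47 in Z138 (line difference -0.98, adjusted p = 0.00544), the same sign on all 4 probe sets (SD 0.07). CREBBP, which encodes CBP and is often mutated in B-cell lymphoma, gave 8.54 and 8.71 in REC-1 and 9.46 and 9.39 in Z138. It was called lower at -0.80 (SE 0.16, adjusted p = 0.0123), with all 5 probe sets lower in REC-1 control. EP300, the gene of p300, differed by -0.64 on the control pair and by -0.07 on the CC-292 pair, and was not called. KAT6B was at -0.23.

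Among deacetylases 3 of 7 were called, 2 higher and 1 lower in REC-1. Of the class I genes, which form the core of nuclear repressor complexes, HDAC1 gave 11.67 and 11.49 in REC-1 and 10.97 and 10.94 in Z138. HDAC1 and HDAC3 were called higher in REC-1 at 0.62 and 0.73 (adjusted p = 0.0252 and 0.0169, limma), whereas HDAC2 was at -0.03 on the control pair. HDAC5 was the only class IIa gene called, with 5.45 and 5.85 in REC-1 and 7.90 and 7.56 in Z138 (line difference -2.08, SE 0.22, adjusted p = 0.00137). Its size rests on the brightest of 3 probe sets. The others gave -1.04 and -0.48 on the control pair and did not reach the minimum on all 4 arrays. HDAC4, HDAC7 and HDAC9, of the same class, had control differences of -0.27, 0.18 and -0.16.

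Of the 6 DNA methylation genes, 5 were called, where 44.7% of all kept genes were. DNMT1 was not (line difference 0.48, adjusted p = 0.062, limma). The 3 TET genes differed in both directions. TET1 gave 5.46 and 5.83 in REC-1 and 6.81 and 7.02 in Z138 and was called lower at -1.27 (SE 0.16). TET2, the family member often mutated in blood cancers, gave 7.86 and 7.82 in REC-1 and 7.18 and 7.19 in Z138 and was called higher at 0.65 (SE 0.16, adjusted p = 0.0204). TET3 was called lower at -0.61 (adjusted p = 0.0318), a call lost with the mean of its probe sets (adjusted p = 0.714) and without a brightness filter (0.0545).

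The DNA methyltransferases that act de novo were lower in REC-1. DNMT3B gave 6.20 and 6.41 in REC-1 and 7.09 and 7.18 in Z138 (line difference -0.83, SE 0.16, adjusted p = 0.00935, limma), and the 5 of its 7 probe sets that reached the minimum on all 4 arrays were lower in REC-1 control. DNMT3A gave 5.33 and 5.55 in REC-1 and 6.59 and 7.03 in Z138 (line difference -1.37, SE 0.16, adjusted p = 0.00195). Its probe sets disagreed, since the 2 brighter ones gave -1.26 and -1.07 on the control pair and the 2 dimmer ones 0.48 and 0.47. DNMT1, which copies methylation at replication, was at 11.67 and 11.47 in REC-1 and 11.07 and 11.11 in Z138.

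In SWI/SNF, the alternative ATPases SMARCA2 and SMARCA4, also known as BRM and BRG1, stood on opposite sides. SMARCA2 gave 7.68 and 7.99 in REC-1 and 9.61 and 9.53 in Z138 (line difference -1.73, SE 0.18, adjusted p = 0.00121, limma), and all 8 probe sets were lower in REC-1 control (mean -1.74, SD 0.36). SMARCA4 gave 10.52 and 10.45 in REC-1 and 10.13 and 10.18 in Z138. It was higher in REC-1 control on all 6 probe sets (mean 0.37, SD 0.20), but was not called. The core subunit SMARCB1 and the DNA-binding subunit ARID1A were called higher in REC-1, at 0.80 and 0.76 (adjusted p = 0.0133 and 0.0123). ARID1B, which can take the place of ARID1A, was at 8.49 and 8.51 in REC-1 and 8.33 and 8.33 in Z138 and was not called.

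The 10 genes at least 2-fold different on the control pair had 43 probe sets that reached the minimum on at least 1 array. Of these, 35 reached it on all 4 arrays. The rest could be kept through the line in which they were bright, which bears on their sign, so that their signs are no support for the difference. With more than 1 probe set on all 4 arrays there were 7 of the 10 genes. In 6 of these the probe sets had 1 sign on the control pair, DNMT3A being the exception, and in 7 they had 1 sign on the CC-292 pair. HDAC5, KAT2B and TET1 had 1 such probe set each. Over all 56 genes, 39 had more than 1 such probe set, and 26 of them had 1 sign throughout on the control pair and 30 on the CC-292 pair.

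**Figure D3:**
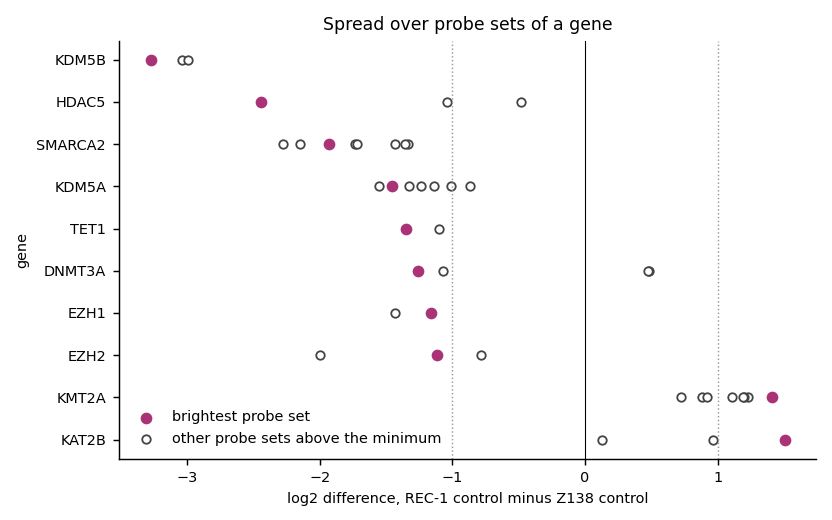
Log2 difference REC-1 control minus Z138 control for each probe set that reached the brightness minimum on at least 1 array, for the 10 genes at least 2-fold different. Filled points are the brightest probe set, open points the others; dotted lines mark 2-fold. All probe sets of a gene fall on 1 side of 0 except for DNMT3A, where 2 of 4 lie at 0.48 and 0.47.

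A second list of 91 genes of the same complexes and enzyme families, of which 83 were kept, was read beside these. On the control arrays 8 of the 83 were at least 2-fold lower in REC-1 and 5 at least 2-fold higher, where 12.4% and 11.9% of all kept genes were. The line test called 20 lower and 12 higher, where 23.1% and 21.6% of all kept genes were. The largest differences were those of SETD7, a lysine methyltransferase (-2.89), BCL11A, a B-cell transcription factor found with SWI/SNF (2.67), KDM4D (1.55) and KDM1B (1.53). KDM4D and KDM1B are demethylases of H3K9 and H3K4. KDM4D lay at 4.10 and 4.17 in Z138, below the brightness minimum.

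The second comparison asked what differed after CC-292 within a line. In REC-1, SETD1A, the catalytic subunit of an H3K4 methyltransferase complex, was 1.67-fold higher on the CC-292 array, and KDM4C, a demethylase of H3K9, was 1.61-fold higher. In Z138, KDM6B, a demethylase of H3K27, was 1.72-fold higher. No other gene of the 56 reached 1.5-fold in either line and none reached it in both. With 1 array per group these differences have no test.

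In REC-1, 2 of 56 genes were past 1.5-fold on the higher side and 0 on the lower, where 4.32% and 4.73% of all kept genes were. None was 2-fold different in either direction, where 1.6% of all kept genes were. In Z138, 1 gene was at least 1.5-fold higher and 0 lower, where 2.18% and 2.52% of all kept genes were, and none was 2-fold different, where 0.564% were. The median difference was 0.00 in REC-1 and 0.05 in Z138, against -0.05 and 0.01 over all kept genes. The median size of a difference was 0.16 in REC-1 and 0.11 in Z138, against 0.20 and 0.14 over all kept genes. The line difference on the control pair was larger in size than either CC-292 difference for 38 of 56 genes. These comparisons share the control arrays. That count was not taken over all kept genes. Over all probe sets the arrays of a line had a Pearson correlation of 0.99 in each line, against 0.93 between the control arrays.

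SETD1A gave 5.43 on REC-1 control and 6.17 on REC-1 CC-292, with 5.80 and 5.82 in Z138. It has 1 probe set, and its difference of 0.74 in REC-1 stands beside a pooled probe-set SD of 0.31. KDM4C gave 5.23 and 5.92 in REC-1 and 5.64 and 5.68 in Z138, control first. All 4 of its probe sets were higher on the REC-1 CC-292 array (mean 0.54, SD 0.26), and with its dim probe sets included the median difference was 0.32. In both genes the Z138 values differed by less than 0.05, and in both the REC-1 control array was the lowest of the 4. Neither reached the 70th percentile of brightness. KDM6B gave 4.01 on Z138 control and 4.79 on Z138 CC-292, and 4.38 and 4.07 in REC-1. It had a value above the minimum of 4.63 only on the Z138 CC-292 array and thus was kept through the array on which it was highest, on its only probe set that bright. The mean over all its probe sets was 0.40.

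**Figure D4:**
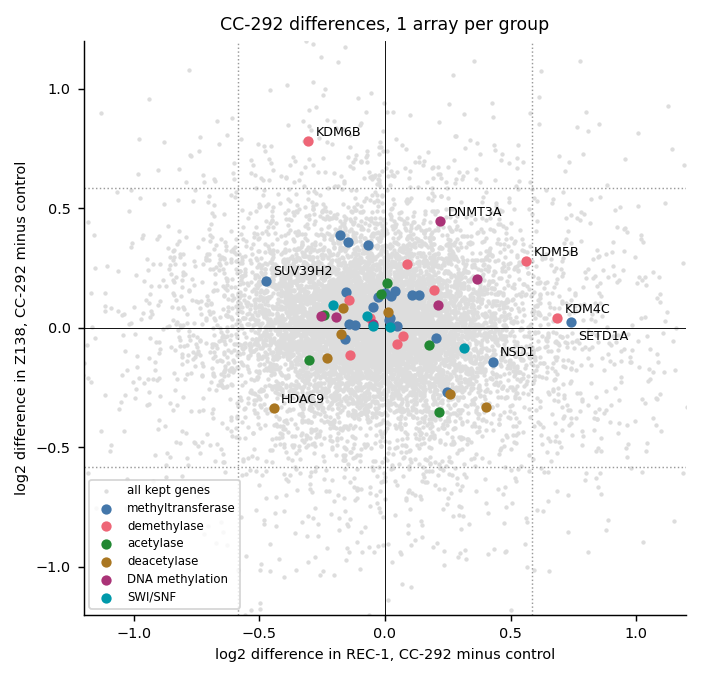
Log2 difference CC-292 minus control in REC-1 (horizontal) and Z138 (vertical), 1 array per group, for the 56 genes coloured by class over all kept genes in grey (103 of 10823 genes lie outside the axes, none of the 56). Dotted lines mark 1.5-fold. SETD1A and KDM4C pass the line on the right at 0.74 and 0.69, and KDM6B the upper line at 0.78.

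By class, the CC-292 differences were small and mostly of mixed sign. The counts above and below 0 stand beside medians over all kept genes of -0.05 in REC-1 and 0.01 in Z138. Most differences lay under the pooled SD between probe sets, 0.31 in REC-1 and 0.25 in Z138. No count by sign was tested. Of the 22 methyltransferase genes, 11 were above 0 in REC-1 and 18 in Z138 (medians 0.01 and 0.11). In REC-1 the count was 12 with quantile normalization and 13 with cyclic loess. The Z138 count was 16 with quantile normalization and 14 with cyclic loess. All 6 H3K4 methyltransferases of the COMPASS type were above 0 in Z138, led by KMT2A (0.36) and SETD1B (0.34), although KMT2A had a mean of 0.02 over 8 probe sets, and 5 of 6 were so with cyclic loess. In REC-1, 3 of these 6 were above 0 (4 with cyclic loess). The H3K9 methyltransferase gene SUV39H2 was the lowest methyltransferase in REC-1. It gave 8.25 and 7.77 there and 8.39 and 8.58 in Z138, differences of -0.47 in REC-1 (SD 0.08 over 2 probe sets) and 0.20 in Z138 (SD 0.01 over 2 probe sets). NSD1 was at 0.43 in REC-1 (mean 0.14 over 7 probe sets) and -0.14 in Z138. SETDB1 was at 0.25 and, as the lowest methyltransferase in Z138, -0.27. SETD5 was the highest methyltransferase in Z138, at 0.39 (SD 0.30 over 2 probe sets). EZH2 hardly differed, by 0.02 and 0.04, on its brightest probe set, but by -0.92 in REC-1 on its dimmest.

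Among demethylases 6 of 10 were above 0 in REC-1 and 7 of 10 in Z138. KDM5B was higher on the CC-292 array in both lines, by 0.56 in REC-1 (SD 0.21 over 3 probe sets) and 0.28 in Z138 (mean 0.12 over 3 probe sets). Its REC-1 control value, 4.65, lay just above the brightness minimum of 4.63. KDM6B was the lowest demethylase in REC-1, at -0.30, and KDM1A the lowest in Z138, at -0.11. Among acetylases, 3 of 6 were above 0 in each line (4 of 6 in REC-1 with quantile normalization or cyclic loess). EP300 was the highest in REC-1, at 0.22, and the lowest in Z138, at -0.35, on 1 probe set. KAT2A was the lowest in REC-1, at -0.30, and KAT6A the highest in Z138, at 0.18.

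Deacetylases had the lowest class median in both lines, -0.17 in REC-1 with 4 of 7 below 0 and -0.13 in Z138 with 5 of 7 below 0. HDAC9, a class IIa deacetylase, was lower after CC-292 in both lines on its brightest probe set. It gave 8.84 and 8.40 in REC-1 and 9.0 and 8.67 in Z138. The differences were -0.44 (SD 0.12 over 4 probe sets) and -0.34 (mean -0.14 over 4 probe sets, of which 2 were lower). In REC-1 the 3 of these probe sets that reached the minimum on all 4 arrays were lower. The other lay below the minimum on both REC-1 arrays, so that it is no support. HDAC7 was at -0.23 in REC-1, lower on all 6 probe sets, and at -0.13 in Z138. HDAC5 was at 0.40 in REC-1, the highest deacetylase there, and -0.33 in Z138, and HDAC4 at 0.26 and -0.28. All 4 class IIa genes were thus below 0 in Z138, also with each other scaling tried, and 2 of 4 were in REC-1. HDAC3, at 0.08, was the highest deacetylase in Z138.

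All 6 DNA methylation genes were above 0 in Z138 (5 with cyclic loess), and 3 of 6 were in REC-1. DNMT3A was highest in Z138, at 0.44 (mean 0.06 over 4 probe sets), and TET2 lowest, at 0.01. TET1 was highest in REC-1, at 0.37 (mean 0.64 over 2 probe sets), and TET3 lowest, at -0.25. The other TET1 probe set, at 0.91, lay below the brightness minimum on REC-1 control (4.31), so that it is no support. In SWI/SNF, 2 of 5 were above 0 in REC-1 and 4 of 5 in Z138, but 3 of 5 and 2 of 5 with quantile normalization or cyclic loess. SMARCA2 was at 0.31 in REC-1 (SD 0.35 over 8 probe sets) and -0.09 in Z138, the highest and the lowest of its class. SMARCB1 was at -0.21 in REC-1 (SD 0.09 over 3 probe sets) and 0.09 in Z138, the lowest and the highest.

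The CC-292 differences of the lines had little in common, in these genes as over all kept genes. Of 56 genes, 24 had the same sign of CC-292 difference in both lines, 18 above and 6 below 0. Another 22 were below 0 in REC-1 and above 0 in Z138, and 10 the reverse. These counts were not taken over all kept genes, so that they show nothing particular to the 56. Across the 56 genes the differences of the lines had a Pearson correlation of -0.15, against -0.04 over all kept genes. These correlations are across genes, which are not independent replicates, and all genes of a pair share its arrays.

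The CC-292 effect averaged over both lines was tested in the same limma fit. No gene of the 56 was called at an adjusted p under 0.05, and 0.0% of all kept genes were. Before adjustment, p was under 0.05 for 472 of the 10823 kept genes and for 1 of the 56, a smaller share. That gene was KDM5B (average effect 0.42, SE 0.17, adjusted p = 1, limma). HDAC9 came next (average effect -0.39, SE 0.16, adjusted p = 1, limma). Each had the same direction in both lines, KDM5B from a REC-1 control value just above the brightness minimum. That agreement is no added support, since this fit favours genes that differ the same way in both lines. In the second list none of 83 genes was called, and the only ones at least 1.5-fold different were the deacetylase SIRT6 in REC-1 (-0.69, mean -0.21 over 2 probe sets) and the acetylase-complex gene TADA2A in Z138 (0.61, mean 0.27 over 2 probe sets).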

How the data were processed

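RNA from 4 cultures was measured on Affymetrix arrays, and per the labels' protocols cRNA was prepared from 150 ng of total RNA. The authors deposited log2 probe-set signals, and RMA and Affymetrix Expression Console 1.1 are named in the submitters' processing notes. The labels state no settings. RMA commonly equalises array distributions, so that a shift of most genes 1 way would not show. The log2 scale was read from the range of the values, 2.18 to 14.26.

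Of 49386 probe sets, 45259 had 1 gene symbol, 1327 several and 2800 none, array controls included. Only those with 1 symbol were used, which left out 4 probe sets shared by a gene of the list and another. The genes, classes and second list were chosen with earlier results of these data known, as was the 1.5-fold size. Every gene of the list could be named. Those past the fold size and the highest and lowest of each class were given, and of the second list up to 4 genes per comparison.

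Differences within a line and between control arrays have no test. limma 3.58.1 in R 4.3.3 fitted cell line and agent to 10823 genes (1 residual and 4.5 prior degrees of freedom), with Benjamini-Hochberg adjustment. On simulated data with 10823 genes 2-fold changes were recovered in 11 of 100 genes for the line difference and 16 of 100 for CC-292. For 4-fold changes these were 98 and 97, and false calls numbered 5 and 8. Only 100 genes changed 2-fold and 100 changed 4-fold in each simulation, whereas 44.7% of kept genes were called for the line in the data. For the line the adjusted cut was thus stricter in the simulation, and its recovery is not the share found in the data. Python 3.11.15, pandas 2.3.3, numpy 2.4.6 and matplotlib 3.10.9 were used. The number of arrays, 1 per group, limits the precision.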

Additional observations from a re-analysis of the deposited data

Results flagged for a closer look

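KDM6B stood out because its CC-292 difference had opposite signs in the lines, -0.30 in REC-1 and 0.78 in Z138, a difference between the responses of -1.09. This difference was not tested, since each group is 1 array. The gene lay above the brightness minimum on the Z138 CC-292 array alone. Any other pair of opposite signs among the 56 genes stayed under 1.5-fold in both lines.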

How the results depend on the processing

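Alternatives were no brightness filter, a minimum at the 70th percentile of all values (log2 6.61, 49 of 56 genes left), the mean or the median difference of all probe sets of a gene, 3 other scalings, other fold sizes and, for limma, an intensity trend or no block. No setting turned the sign of a gene named as past a fold size or called in the line test. At the 70th percentile, 0 genes were 1.5-fold higher after CC-292 in REC-1 and 0 in Z138, since SETD1A, KDM4C and KDM6B are too dim. With either other choice of probe set the Z138 number was 0. In REC-1 KDM4C then fell short of 1.5-fold, at 0.46 with the mean and 0.32 with the median difference. The REC-1 number stayed at 2 because TET1, at 0.64, took its place. TET1 did so through a probe set below the minimum on REC-1 control. At a smaller fold size (a ratio of 5 to 4), REC-1 had 6 higher and 2 lower and Z138 5 higher and 3 lower, and at 2-fold 0 were higher in either line. For the control pair, 1.5-fold gave 9 higher and 15 lower in REC-1 and 3-fold gave 0 and 3. These counts at other fold sizes are given without the share of all kept genes, so that they show nothing particular to the 56. Either other choice of probe set gave 1 higher, as KAT2B was at 0.87 (mean) and 0.97 (median difference). The median over the 56 genes was then -0.0923 and -0.10. The CC-292 pair in place of the control pair, chosen after seeing the data, gave 1 higher. With the mean, KDM5B was at -2.33 and 6 genes were 2-fold lower, EZH1 (-0.98) and DNMT3A no longer among them. DNMT3A shrank to -0.34 with the mean and -0.30 with the median difference, and HDAC5 to -1.32 and -1.04. Of the 24 genes called for the line, 22 were called under all alternatives that kept them, and KDM2A and TET3 were not. The number called ran from 22 (no filter) to 31 (intensity trend). Without a filter 2144 of all 18239 genes were called higher and 2291 lower, a smaller share than the 22 of 56. With the intensity trend 2806 and 2928 of 10823 were, a share near that of the 31 of 56. These shares were not tested against each other. Every gene past a fold size stayed past it under the other scalings. The labels give no replicate numbers. The line test pairs the arrays by agent, and without that pairing it called 26 of 56 genes. Of all 10823 kept genes it then called 2461 higher and 2614 lower. With 1 array per group, what a repeated culture would give is unknown.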
